A study of Mus musculus with 8 samples.

Results

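Proline tRNA fragments were examined in islet macrophages (iMACs) sorted from db/db and wild-type mice. The set comprised every fragment that the deposited table assigned to tRNA-Pro-AGG, tRNA-Pro-CGG or tRNA-Pro-TGG, with entries of the same sequence merged into 1 fragment. This gave 16 of the 144 distinct tRNA fragments (tRFs) listed, from 242 table entries. The proline tRNAs were selected on the high counts of their internal fragments in these same libraries, so their abundance and evenness are given as a description with no test.

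Small RNAs were sequenced from 4 db/db and 4 wild-type iMAC preparations. The db/db mice (BKS.Cg-Dock7m+/+LeprdbJ) lack a working leptin receptor and become obese and diabetic, and the controls (BKS.Cg-Dock7m+/+) share the Dock7m background without it. All mice were males of 8 weeks of age, and the labels name no treatment. Islets of several mice were pooled for each sort, more mice per pool in the controls, and cells were gated on CD45, CD11b, F4/80 and CD11c, so each library stands for a pool and not for 1 animal. Cell markers cannot be checked in a table of tRNA fragments. A lower level in such bulk samples can come from fewer cells or from less RNA per cell, which cannot be told apart.

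Proline tRNAs carry proline to the ribosome and read proline codons through the anticodons AGG, CGG and TGG. A tRNA folds into a cloverleaf in which the anticodon arm is followed by a short variable region, the T arm and a 3' end to which CCA is added after transcription. Cleavage of mature tRNAs gives tRFs that start at the 5' end, finish at the CCA or lie inside the molecule. In the mouse, the 3' end of tRNA-Pro is also known as the primer for reverse transcription of murine leukemia viruses, and the base after the anticodon of proline tRNAs is methylated.

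The main proline fragments formed a ladder with 1 shared start. Positions follow the standard tRNA numbering, in which the anticodon is 34 to 36 and the anticodon loop ends at 38. The ladder started at 38, ran through the second strand of the anticodon stem, the variable region and the T stem, and ended at the last base of the T stem (53) or within the T loop (54 to 57). Its 5 members are shown because they carried 3223 of the 4006 proline counts (80.5%), with the bases past position 53 in capitals, 5' to 3', as DNA letters from the deposited table:
ladder, 16 nt, ends at 53: tgcgagaggtcccggg
ladder, 17 nt, ends at 54: tgcgagaggtcccgggT
ladder, 18 nt, ends at 55: tgcgagaggtcccgggTT
ladder, 19 nt, ends at 56: tgcgagaggtcccgggTTC
ladder, 20 nt, ends at 57: tgcgagaggtcccgggTTCA

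Another 4 fragments began 1 or 2 bases further in, at 39 or 40, and ended at 54, 56 or 57. They held 252 counts (6.29% of the proline counts). They are shown to place their ends, with the bases past 53 in capitals as above:
start 39, 16 nt: gcgagaggtcccgggT
start 39, 18 nt: gcgagaggtcccgggTTC
start 40, 17 nt: cgagaggtcccgggTTC
start 40, 18 nt: cgagaggtcccgggTTCA

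A group of 3 fragments held bases of the anticodon itself, and these are the ones that can separate the isoacceptors. The fragment from position 36 carries only the last anticodon base, which all 3 isoacceptors share. The pair from position 31 carries the whole anticodon, and these were the only fragments assigned to 1 isoacceptor each. The anticodon bases are in capitals:
start 36, 16 nt, all 3 isoacceptors: Ggtgcgagaggtcccg
start 31, 16 nt, Pro-TGG: cttTGGgtgcgagagg
start 31, 16 nt, Pro-CGG: cttCGGgtgcgagagg

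The remaining 4 fragments came from elsewhere in the tRNA. A pair ended at position 33, just before the anticodon, and differed from each other only in the first base, given as a capital:
before the anticodon, 17 nt, C form: Cggtatgattctcgctt
before the anticodon, 17 nt, T form: Tggtatgattctcgctt

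The other pair ended at the 3' end of the mature tRNA, with the added CCA in capitals:
3' end, 18 nt: atcccggacgagcccCCA
3' end, 17 nt: tcccggacgagcccCCA

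The fragments from position 31 and the ladder overlapped into 1 stretch of 27 nt, positions 31 to 57, printed here in its Pro-TGG form with the anticodon in capitals:
joined stretch: cttTGGgtgcgagaggtcccgggttca
Within it the second strand of the anticodon stem, GCGAG, is the complement of CTCGC, which lies near the end of the fragments before the anticodon. None of the 16 fragments started at the mature 5' end of the tRNA, whose first 7 bases, read as the partner of the 3' end fragments, would be GGCTCGT. The table therefore listed internal and 3' fragments of the proline tRNAs and 0 5' fragments.

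**Figure D1:**
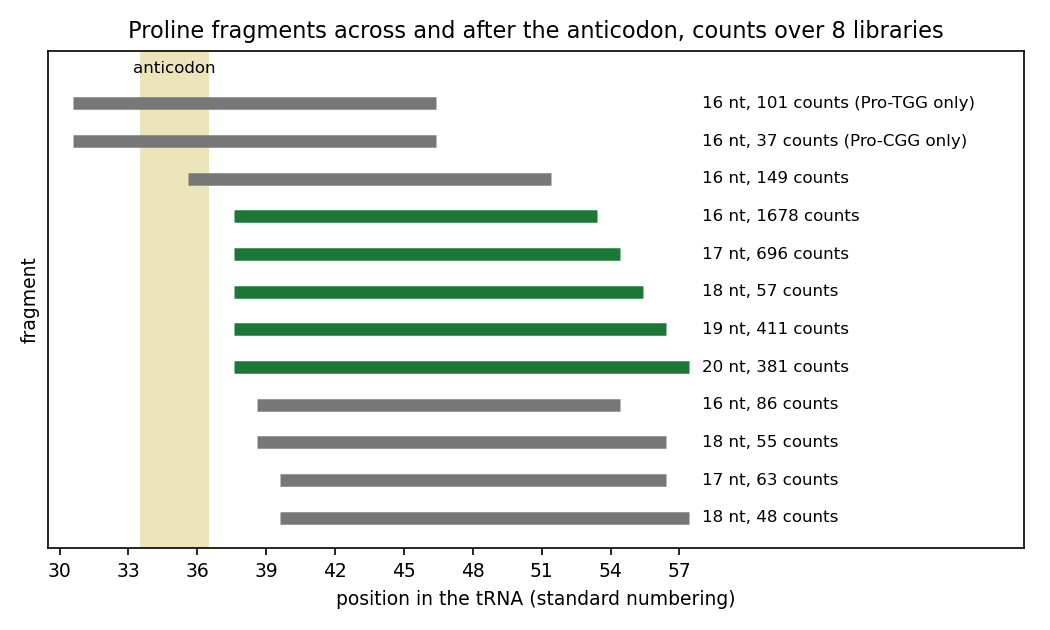
Placement of the 12 proline fragments that cross or follow the anticodon, with the standard tRNA position on the x axis, 1 bar per fragment and its summed counts over the 8 libraries beside it. The 5 green bars of the ladder share their start at 38, and their counts fall at the 18-nt member (57 counts) between longer and shorter members with 381 to 1678 counts.

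Of the 16 fragments, 14 were assigned to all 3 isoacceptors. RefSeq annotates 16 nuclear proline tRNA genes on GRCm38.p6, the build that the submitters' processing notes name: 6 for AGG, 3 for CGG and 7 for TGG. Each is 72 bp long. The 3 CGG genes are n-TPcgg1 (chr17:23540915-23540986), n-TPcgg2 (chr1:165642271-165642342) and n-TPcgg3 (chr11:69040385-69040456). A fragment shared by the isoacceptors cannot be traced to 1 of these genes, so its count is a sum over an unknown mix of them.

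The proline fragments made up a large share of the listed counts. Counts in this table are molecules, since reads were collapsed by their unique molecular identifiers, and each library held 1477 to 4567 of them over the 144 fragments. The proline total was 357, 434, 550 and 459 counts in db/db replicates 1 to 4, against 656, 468, 623 and 459 counts in wild-type replicates 1 to 4. The ranges of the genotypes overlapped, with means of 450 ± 79.6 in db/db and 551.5 ± 103 in wild type (SD, n = 4 each). As a share of the listed counts the proline fragments were 14.2% (95% Wilson interval 12.9 to 15.6), 21.96% (20.2 to 23.8), 30.4% (28.3 to 32.6) and 26.8% (24.8 to 29.0) in db/db iMACs. In wild-type iMACs the share was 30.1% (28.2 to 32.0), 31.7% (29.4 to 34.1), 13.6% (12.7 to 14.7) and 22.8% (21.1 to 24.7). These intervals cover counting error only. The mean share was 23.3 ± 7.04% in db/db and 24.6 ± 8.23% in wild type, a difference of -1.21 percentage points that is smaller than either SD.

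The low shares did not follow the genotype. Db/db replicate 1 and wild-type replicate 3 stood lowest, and these libraries, with wild-type replicate 4, were rich in Ser-GCT, Cys-GCA and Leu-TAG fragments that lack the CCA end. Those 19 fragments took 28.6% of the counts in db/db replicate 1 and 38.7% and 32.8% in wild-type replicates 3 and 4, against 2.02 to 2.87% in the other 5 libraries. With them taken out of the totals, the proline share was 19.8, 22.4, 31.1 and 27.6% in db/db (25.2 ± 5.07%) and 30.7, 32.5, 22.3 and 34% in wild type (29.9 ± 5.25%). The genotypes still overlapped. Results without those 3 libraries, or with the 19 fragments left out of the scaling, are given below. Most of them are in the closing section on processing.

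The 16-nt ladder fragment was the most abundant of all 144 fragments by mean share. It had 152, 151, 250 and 201 counts in db/db iMACs and 244, 191, 261 and 228 counts in wild-type iMACs, which is 9.81 ± 3.602% and 10.3 ± 3.15% of the listed counts. It ranked first in 6 of 8 libraries. In db/db replicate 2 an Ala-CGC fragment of 16 nt was higher (423 counts). In wild-type replicate 3 a Leu-TAG fragment of 18 nt (320 counts) and a Cys-GCA fragment of 23 nt (276 counts) were higher.

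The longer ladder fragments also stood near the top, apart from the 18-nt one. The 17-nt fragment had 64, 81, 106 and 88 counts in db/db and 112, 74, 98 and 73 counts in wild type, and it ranked 3 of 144 by mean share. The 19-nt fragment, rank 4, had 27, 43, 61 and 52 counts in db/db and 62, 54, 75 and 37 counts in wild type. The 20-nt fragment, rank 5, had 18, 47, 56 and 38 counts in db/db and 66, 45, 69 and 42 counts in wild type. For these 3 fragments db/db replicate 1 gave the lowest count of the db/db group, and the ranges of the genotypes overlapped in each. The 18-nt fragment, which differs from its neighbours by 1 base each, ranked 83, with 8, 6, 4 and 3 counts in db/db and 12, 11, 5 and 8 counts in wild type.

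**Figure D2:**
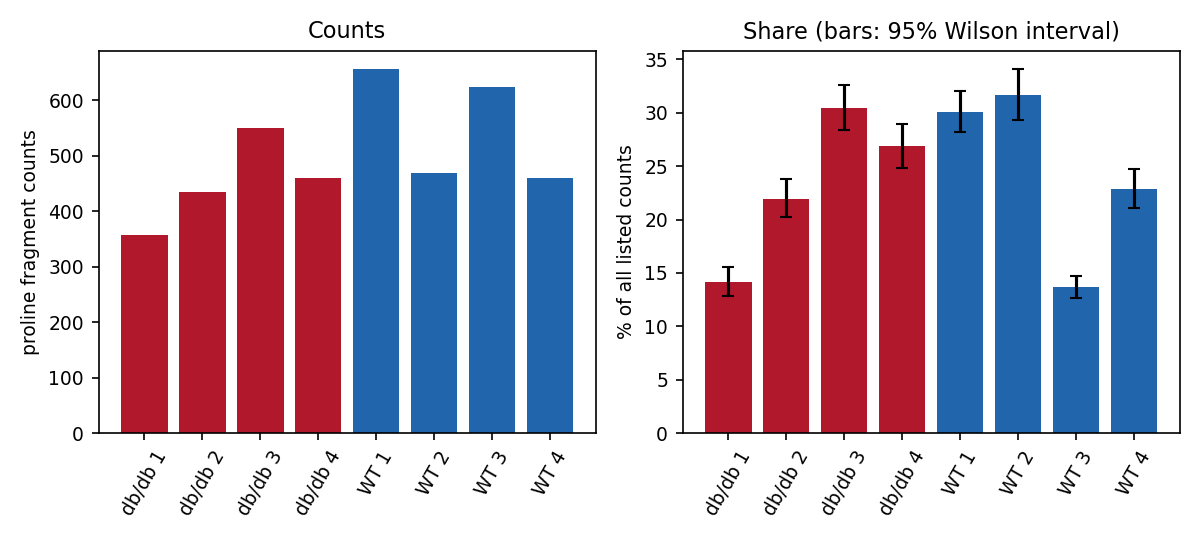
Total count of the proline fragments, and their share of the listed counts with its Wilson interval, in each of the 4 db/db and 4 wild-type libraries. The genotypes overlap in both measures. Totals were 357 to 550 counts in db/db and 459 to 656 in wild type. Shares were 14.2 to 30.4% in db/db and 13.6 to 31.7% in wild type.

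Within the ladder, the 16-, 17- and 18-nt members kept their ranks in all libraries, while the shares varied, at 20 nt from 6.69 to 14.3%. Of the ladder counts over all 8 libraries, 52.1% were 16 nt long, 21.6% 17 nt, 1.77% 18 nt, 12.8% 19 nt and 11.8% 20 nt. The 16-nt member was highest, the 17-nt member second and the 18-nt member lowest in 8 of 8 libraries. Over all counts the 19-nt fragment stood 7.21-fold above the 18-nt one, and the ratio was 3.38 to 17.3 by library. The 20-nt fragment was 2.25 to 14 times the 18-nt one by library. The T loop of tRNAs begins with modified uridines followed by a C. The 18-nt fragment stops at the second of those uridines, and the longer ones stop at the C or the A after it. The 17-nt fragment stops at the first of the uridines and stood 12.2-fold above the 18-nt one over all counts. Whether these bases bear on the low 18-nt count was not tested.

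Ends at 53 and 55 were each used by 1 fragment, a ladder member, while ends at 54, 56 and 57 were shared with fragments from 39 or 40. Of the counts from fragments that cross or follow the anticodon, ladder included, 44.6% ended at position 53, 20.8% at 54, 1.52% at 55, 14.1% at 56 and 11.4% at 57. The fragments from 31 and 36 ended at 46 and 51 and held 3.67% and 3.96%. Position 38 was the start of 85.7% of those counts, against 3.75% for position 39 and 2.95% for position 40. The ladder stops at the short side where the table does: 16 nt was the shortest length listed apart from 1 fragment of another tRNA, so members ending before position 53 would fall below that length. The study's methods state that reads longer than 16 nt were kept, while the table lists 16-nt fragments, so the 16-nt member lies at a limit that the sources give differently.

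Between the genotypes, 4 of the 5 ladder shares differed by less than the larger SD, and the 17-nt share differed by more. The 16-nt share of the ladder was 51.9 ± 4.33% in db/db and 52.6 ± 4.24% in wild type. The 17-nt share was 23.4 ± 1.06% in db/db (22.2 to 24.7%) and 20.1 ± 1.69% in wild type (18.8 to 22.6%), and these ranges overlapped in wild-type replicate 1. Within the library numbers described below they did not: in numbers 17 to 20 the 17-nt share was 23.8 and 24.7% in db/db against 22.6 and 19.7% in wild type, and in numbers 21 to 24 it was 22.2 and 23.04% in db/db against 19.3 and 18.8% in wild type. At 16, 19 and 20 nt the genotypes overlapped within both sets of numbers, and at 18 nt within numbers 17 to 20. This split was looked at after the values were known, for the length that differed by more than the larger SD. The 17-nt fragment was not called in any test below. Its change relative to the other proline fragments had an adjusted p of 0.997 in edgeR's diffSpliceDGE. The 18-nt share was 1.61 ± 1.03% in db/db and 2.10 ± 0.825% in wild type. The 19-nt share was 12.4 ± 1.60% in db/db and 12.8 ± 2.39% in wild type. The 20-nt share was 10.7 ± 3.21% in db/db and 12.4 ± 1.27% in wild type, with the lowest value, 6.69%, in db/db replicate 1. The count-weighted mean length of all proline fragments was 16.999 ± 0.139 nt in db/db and 17.04 ± 0.0787 nt in wild type, a difference of -0.046 nt.

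**Figure D3:**
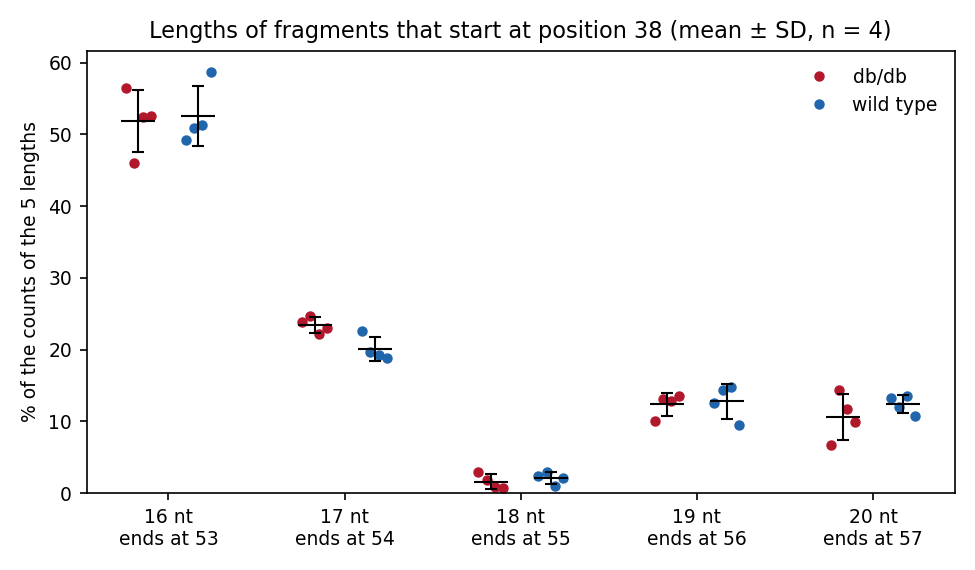
Share of each length within the ladder counts, in percent, for every library of the db/db and wild-type groups. The 16-nt fragment holds 46.0 to 58.8% in every library and the 18-nt fragment 0.785 to 2.97%.

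The proline fragments were shorter on average than the other tRFs of the table. Of the 16 proline fragments 10 were 16 or 17 nt long, and so were 44 of the 128 others. The proline set held no 5' fragments, so its lengths were not compared with fragments of the same kind only. They ran over 16 to 20 nt, with 51.2% of their counts at 16 nt, while the other 128 fragments reached 30 nt and had 19.3% of their counts at 16 nt. Of those 128, 48 were longer than the longest proline fragment, with 42.5% of their counts. The mean length of the other fragments was 22.1 ± 1.94 nt in db/db and 19.9 ± 0.740 nt in wild type. The median GC content was 69.7% over the proline fragments and 58.5% over the others.

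The comparison of db/db with wild-type iMACs asks whether any proline fragment changed with obesity and diabetes. No proline fragment passed the test. Fragments were tested with edgeR's quasi-likelihood fit after TMM scaling and a low count filter, and called at an adjusted p under 0.1 with a change above 2-fold. Of 44 fragments tested, 6 were called, all higher in db/db, which is 13.6%. Of the 16 proline fragments, 6 passed the filter and 0 were called. None of the 6 had an unadjusted p under 0.05, against 12 of all 44, and DESeq2 called 0 of the 16 proline fragments and 16 of 134 with an adjusted p. The median log2 fold change, db/db over wild type, was 0.18 over the 6 tested proline fragments and 0.06 over all 44.

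The 16-nt ladder fragment had a log2 fold change of 0.16 (SE 0.43), with a 95% interval of -0.79 to 1.12 and an edgeR adjusted p of 0.918. The 17-nt fragment had the largest change of the 6, 0.40 (SE 0.48, interval -0.65 to 1.46, edgeR adjusted p = 0.702). The 19-nt and 20-nt fragments gave 0.22 (SE 0.53) and 0.05 (SE 0.55). Across the 6 the intervals reached from -1.18 to 1.46 on the log2 scale, so a 2-fold change upward lay inside each interval, and the data do not show equal levels. These signs depend on the scaling: with library totals alone and no TMM factors, 5 of the 6 values were below 0, the exception being the 17-nt fragment, and with Cys-GCA, Leu-TAG and Ser-GCT fragments left out of the scaling all 6 were.

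The anticodon fragments were scarcer and more variable. The fragment from position 36 had 27, 23, 9 and 9 counts in db/db and 39, 17, 18 and 7 counts in wild type, a log2 fold change of 0.10 (SE 0.50, edgeR adjusted p = 0.993). The Pro-TGG fragment had 7, 16, 12 and 10 counts in db/db and 29, 6, 11 and 10 counts in wild type, a log2 fold change of 0.19 (SE 0.53, edgeR adjusted p = 0.918). Its highest value was in wild-type replicate 1. The Pro-CGG fragment had 6, 7, 1 and 0 counts in db/db and 11, 4, 7 and 1 counts in wild type, too few to pass the filter. The count of 0 in db/db replicate 4 shows only that none was seen at that depth.

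The Pro-TGG fragment exceeded its Pro-CGG counterpart in 8 of 8 libraries, with 101 against 37 counts in all. Pro-TGG made up 53.8, 69.6, 92.3 and 100% of the pair in db/db and 72.5, 60, 61.1 and 90.9% in wild type. RefSeq holds 7 TGG and 3 CGG genes. A Pro-AGG counterpart from the same start was not among the listed fragments, and fragments of that anticodon with a mismatch to the gene sequence would not have been counted, since only perfect matches were kept.

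The 10 fragments that failed the filter had 0 to 17 counts per library and 37 to 86 counts in all. Without the filter, all 16 were tested and 0 were called, with 0 at an unadjusted p under 0.05, against 11 called of 144. Of the 16 log2 fold changes, 5 were negative, and their median was 0.13, against -0.11 over the 144. The most negative was the T form before the anticodon, -1.10 (SE 0.86), and the most positive the 17-nt 3' fragment, 1.06 (SE 0.78), both with an edgeR adjusted p of 0.591.

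**Figure D4:**
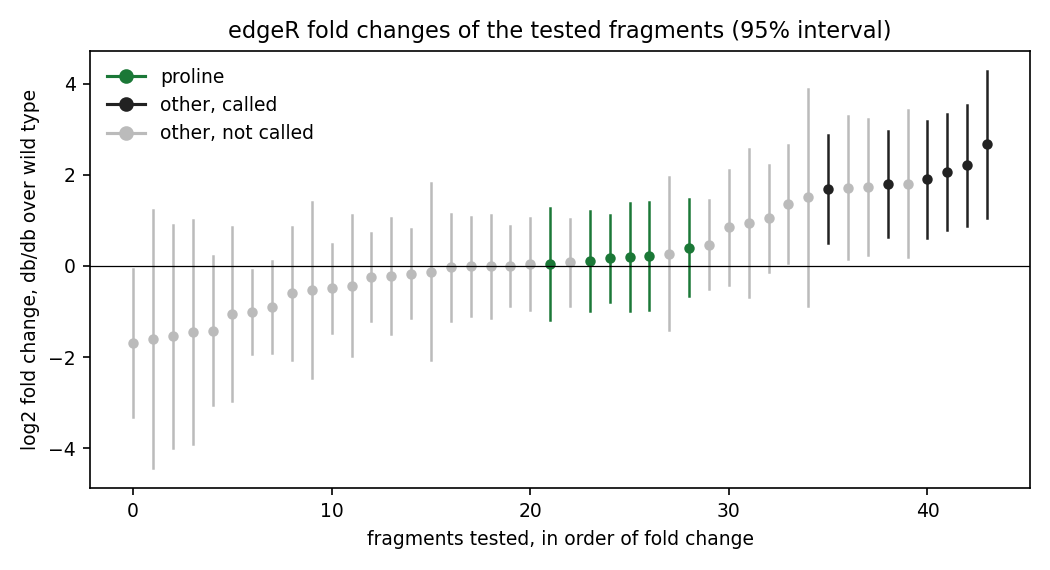
Log2 fold change, db/db over wild type, with its 95% interval for the 44 tested fragments in order of fold change. The 6 proline fragments are green, other called fragments dark and the rest grey. Each proline interval crosses 0, and the proline values lie between 0.05 and 0.40. Intervals of some other fragments do not cross 0, for example 0.88 to 3.53 for a Leu-CAG fragment of 25 nt.

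Sums over fragments of the same region were tested to gain depth. Counts were summed over fragments with the same tRNA names that ended in CCA or overlapped, which gave 45 sums, of which 32 were tested, 2 were called (6.25%) and 5 had an unadjusted p under 0.05. Of the 5 proline sums 4 were tested and 0 were called, with 0 at an unadjusted p under 0.05. The sum over the 10 shared fragments at and after the anticodon was 325, 385, 507 and 425 counts in db/db and 573, 414, 569 and 426 counts in wild type. This sum changed by 0.04 on the log2 scale (SE 0.34, edgeR adjusted p = 0.913), and the value turned negative without TMM factors (-0.044) and with DESeq2 (-0.16).

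The pair that ended just before the anticodon gave the largest difference among the proline sums. It had 16, 17, 6 and 3 counts in db/db and 26, 31, 22 and 13 counts in wild type, so that the 2 highest db/db libraries overlapped the lowest wild-type library. The difference was -0.94 on the log2 scale (SE 0.51), with an unadjusted p of 0.0970 and an edgeR adjusted p of 0.311, and it did not pass. Within library numbers 17 to 20 the counts were 16 and 17 in db/db against 26 and 31 in wild type, and within numbers 21 to 24 they were 6 and 3 in db/db against 22 and 13 in wild type. A term for the numbers gave -1.06 on the log2 scale, with an edgeR adjusted p of 0.190, again not called. With db/db replicate 1 and wild-type replicates 3 and 4 left out, which was chosen once the values were known, it was -1.61 with an edgeR adjusted p of 0.0955 and passed, while 13 of 32 sums were called there. Both forms were listed: the C form had 6, 13, 6 and 2 counts in db/db and 16, 16, 16 and 9 counts in wild type. The T form had 10, 4, 0 and 1 counts in db/db and 10, 15, 6 and 4 counts in wild type. The C form was at or above the T form in 7 of 8 libraries.

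The 3' end fragments were few and did not differ beyond their spread. Together they had 3, 9, 24 and 21 counts in db/db and 17, 13, 14 and 9 counts in wild type. The db/db libraries included both the lowest and the highest values. The summed log2 fold change came to 0.52 (SE 0.66, edgeR adjusted p = 0.603), and leaving out 1 library at a time moved it between -0.33 and 0.90. The 18-nt fragment had 2, 2, 13 and 9 counts in db/db and 9, 7, 6 and 8 counts in wild type, and the 17-nt one had 1, 7, 11 and 12 counts in db/db and 8, 6, 8 and 1 counts in wild type. These are the only 2 of the 16 sequences that occurred on the same strand of a GENCODE M21 transcript, that of Gm15280, an unprocessed pseudogene on chromosome X. The other 14 occurred in none of the transcripts, and no reverse complement of any of the 16 did.

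The balance among the proline fragments was also compared. For each amino acid, edgeR's diffSpliceDGE tested whether a fragment changed relative to the other fragments of that amino acid. Of 40 fragments tested 0 were called (0%), with 1 at an unadjusted p under 0.05. The 6 proline fragments tested gave 0 calls and 0 at an unadjusted p under 0.05. Their relative log2 fold changes ran from -0.11 for the 20-nt ladder fragment to 0.14 for the 17-nt one, with an adjusted p of 0.997 for each. Shares of the proline counts overlapped between genotypes: the ladder was 80.2 ± 5.68% in db/db and 80.5 ± 3.71% in wild type, and the fragments before the anticodon 2.54 ± 1.94% in db/db and 4.24 ± 1.66% in wild type.

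Some shares of the proline counts differed between the library numbers in the sample titles, which are balanced over genotype. Numbers 21 to 24 are db/db replicates 3 and 4 and wild-type replicates 3 and 4, and numbers 17 to 20 are the other 4 libraries. What the numbers stand for is not given in the sources used here. The ladder made up 81.5 to 86.7% of the proline counts in numbers 21 to 24 and 75.4 to 80.1% in numbers 17 to 20. The fragments before and across the anticodon together made up 4.79 to 9.31% in numbers 21 to 24 and 12.4 to 16.01% in numbers 17 to 20, with no overlap. Taken alone, those before it did not overlap (0.654 to 3.53% against 3.92 to 6.62%). Those across it did (3.92 to 5.78% against 5.77 to 12.04%), as did the 3' end fragments and the other starts after the anticodon. All are parts of the same proline total, so these differences are not independent of each other. These sets were compared after their values were seen. In an edgeR fit with a term for the numbers and no filter, 0 of 144 fragments (0%) were called for that term, with 5 at an unadjusted p under 0.05. The T form before the anticodon had a log2 difference of -2.03 (SE 0.74) and the fragment from position 36 one of -1.10 (SE 0.46), both with an adjusted p of 0.844. With that term in the filtered fit, 0 of 44 fragments were called between the genotypes, proline or other, against 6 of 44 without it.

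The abundant ladder fragments had low spread between libraries. Among the 28 fragments with a mean of at least 20 counts, the 4 proline ones had the 4 lowest coefficients of variation of the counts over the 8 libraries: 20.5% at 16 nt, 19.6% at 17 nt, 29.8% at 19 nt and 34.4% at 20 nt. The 18-nt member was below that mean. The 16-nt fragment averaged 209.75 counts and no fragment of another tRNA averaged more than 84.5, so it has none of like abundance beside it. Counting error alone gives 6.90, 10.7, 14.0 and 14.5% for these 4 fragments. The other 24 had a median of 78.3% (36.8 to 176%). As shares of the listed counts, the proline fragments had 31.3, 31.8, 37.1 and 37.0%, and the others a median of 82.4% (33.3 to 166%), so that the steadiest of the others was below the 19-nt and 20-nt members. The listed totals varied by 42.7%, over a 3.09-fold range, and the proline totals over a 1.84-fold range. These coefficients are a description with no test, and fragments of 1 library share its total.

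The 3 fragments of other tRNAs with mean counts nearest the 16-nt proline fragment were set beside it, without the low count filter. The plan had been to apply that filter, which the Leu-TAG and Cys-GCA fragments below did not pass. The Ala-CGC fragment of 16 nt had 19, 423, 30 and 16 counts in db/db and 36, 95, 40 and 17 counts in wild type. The Leu-TAG fragment of 18 nt had 143, 3, 1 and 3 counts in db/db and 3, 4, 320 and 70 counts in wild type. The Cys-GCA fragment of 23 nt had 95, 4, 5 and 7 counts in db/db and 4, 3, 276 and 79 counts in wild type. Each was carried by 1 to 3 libraries, with coefficients of variation of 165, 166 and 161%, against 20.5% for the 16-nt proline fragment. A ranking by mean count without the filter favours fragments that are high in few libraries, so this contrast is partly built in. The steadiest other fragment, of 16 nt from Leu-AAG, Leu-CAG and Leu-TAG, averaged 28.4 counts and had 36.8%.

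**Figure D5:**
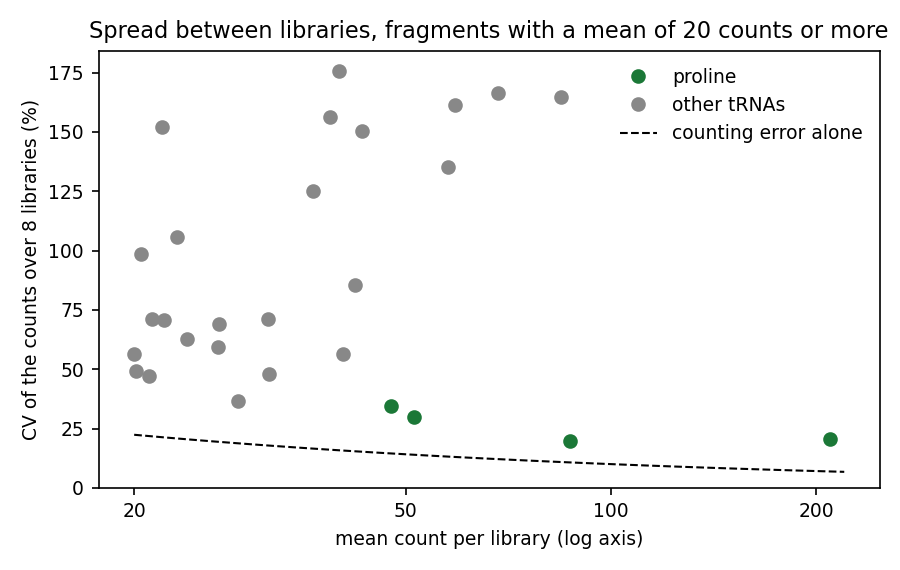
Coefficient of variation of the counts over the 8 libraries (%), by mean count per library on a log axis, for the 28 fragments with a mean of 20 counts or more. The 4 proline points lie at 19.6 to 34.4%, below the 24 points of other tRNAs at 36.8 to 176%, and the dashed line is counting error alone.

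Other fragments were ranked by how closely they followed the summed proline share across libraries. On the log2 of the share with 0.05 percentage points added, over 8 libraries, the fragment with the highest Pearson correlation was one of 18 nt from Leu-TAA, Ser-CGA and Ser-TGA (r = 0.91). An Asp-GTC fragment of 23 nt (r = 0.68) and a Gly-CCC fragment of 30 nt (r = 0.67) came next. These correlations are descriptions, and all shares have the listed total of the library as their denominator.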

How the data were processed

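Total RNA of sorted iMACs was turned into small RNA libraries (QIAseq miRNA kit), 4 per genotype, and the samples were grouped by the genotype in the labels. Per the study's methods, the authors collapsed identical reads by unique molecular identifier, aligned them to GRCm38.p6 and assigned perfect matches to mature tRNAs of GtRNAdb with bowtie. Reads with a misread modified base, or shorter than the length limit, are therefore missing from the levels given. The deposited counts are whole numbers of molecules per fragment and were used as deposited. The log2 columns that the authors deposited beside them, normalized values, were not used, and 0 columns of the table were unmapped.

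Entries with the same sequence were merged, and library totals are sums over the 144 distinct fragments, not sequencing depth. Fragments were placed in the tRNA by their overlaps and the anticodon. Tests used edgeR 4.0.16 in R 4.3.3 (quasi-likelihood, TMM, filterByExpr with a minimum count of 10 and a minimum total of 15, no covariate, Benjamini-Hochberg adjustment over all fragments or sums tested), with the study's thresholds of adjusted p under 0.1 and fold above 2. DESeq2 1.42.0 was an alternative. Intervals are 95%. Sums were planned by region of the tRNA, but 5' and internal fragments of other tRNAs could not be separated, so sums were made over fragments with the same tRNA names that end in CCA or else share at least 10 bases. Values per library are given for each proline fragment that passed the filter, and others by counts and ranges or where a ladder, region or isoacceptor needs them. Other tRNAs shown are the 3 with counts nearest the most abundant proline fragment and the 3 with the most similar share. For the nearest counts the filter was not applied, which is a change from the plan. Proline fragments and lists were chosen with earlier results of these data known. Alternatives were other scalings, filters and denominators, a term for the library numbers, and leaving out libraries. Replicates are pools of mice described as independent preparations. 5' fragments of 1 other tRNA are not reported here.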

Additional observations from a re-analysis of the deposited data

Results flagged for a closer look

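In 52 sets of 4 libraries (proline measures within 1 genotype), 2 held a library far from the other 3 by Dixon's criterion, and chance gives about 1 in 20. Fragments starting at position 39 or 40 made up 3.82% of the proline counts in db/db replicate 3, against 7.41 to 8.12% in the other 3 db/db libraries. The mean length of the ladder was 16.9 nt in wild-type replicate 4, against 17.2 nt in each of the other 3 wild-type libraries.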

How the results depend on the processing

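No proline fragment was called under any alternative run, but the calls over all fragments varied from 0 of 44 (no TMM, or the term for library numbers) to 27 of 63 (3 libraries left out), and without db/db replicates 1 to 4 in turn they were 21 of 53, 0 of 68, 0 of 68 and 0 of 66. Without wild-type replicates 1 to 4 in turn they were 1 of 63, 10 of 65, 2 of 62 and 3 of 60. The count of called proline sums stayed at 0 except with db/db replicate 1 and wild-type replicates 3 and 4 left out, where it was 1. The 6 tested fragments gave 101 alternative log2 fold changes (-0.61 to 0.67, lowest adjusted p 0.257), of which 35 changed sign, and the sums gave 53 (-1.61 to 0.90), of which 17 did. The cause was not tested.

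Without TMM factors the values were -0.068 for the 16-nt, -0.045 for the 19-nt and -0.20 for the 20-nt ladder fragment, -0.15 for the fragment from 36, -0.080 for the Pro-TGG fragment, -0.044 for the sum at and after the anticodon and -0.081 for the Pro-TGG sum. DESeq2 gave -0.023 for 16 nt, -0.14 for 20 nt, -0.032 for the fragment from 36, -0.16 for the sum at and after the anticodon and -0.20 for the Pro-TGG sum. With proline left out of the scaling the fragment from 36 was -0.0061 and the 20-nt one -0.042. With every table entry kept, 16, 19 and 20 nt gave -0.066, -0.020 and -0.17. The term for library numbers gave -0.046 for 20 nt and -0.0075 for the sum at and after the anticodon. With the 3 libraries left out, the fragment from 36 was -0.61, the sum at and after the anticodon -0.079 and the Pro-TGG sum -0.27. With Cys-GCA, Leu-TAG and Ser-GCT fragments left out of the scaling, the 16-, 17-, 19- and 20-nt ladder fragments were -0.28, -0.035, -0.24 and -0.40, the fragment from 36 -0.22 and the Pro-TGG fragment -0.23. The last 2 choices were made after seeing the data.

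Leaving out 1 library at a time gave log2 fold changes of -0.12 to 0.37 for 16 nt, 0.17 to 0.63 for 17 nt, -0.075 to 0.49 for 19 nt, -0.23 to 0.35 for 20 nt, -0.25 to 0.49 for the fragment from 36 and -0.090 to 0.67 for the Pro-TGG fragment. For the sums it gave -0.51 to 0.23 at and after the anticodon, -1.31 to -0.63 before it, -0.33 to 0.90 at the 3' end and -0.39 to 0.51 for Pro-TGG. The difference in proline share ranged from -4.85 to 1.85 percentage points and that in mean length from -0.081 to 0.022 nt. With db/db replicate 1 and wild-type replicates 3 and 4 all left out, these differences were -4.47 percentage points and 0.0033 nt. No paired analysis was possible because the labels give no replicate numbers that the genotypes share, and the replicate numbers used here follow accession order. With 1477 to 4567 listed counts per library, the 10 proline fragments under the filter had at most 17 counts in a library, which limits what could be detected for them.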
